A study of Rattus norvegicus with 6 samples.

Results

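Transcription factors that mark retinal ganglion cells were measured in ganglion cells taken from both eyes of 3 rats. The genes considered were Pou4f1, Pou4f2, Pou4f3, Isl1, Ebf1 and Ebf3, and their probe sets were chosen as those to which the platform annotation gives 1 of these 6 symbols alone. Of the 6 genes, 3 had such probe sets. They held 6 of 31042 probe sets on the array, 1 for Pou4f1, 2 for Isl1 and 3 for Ebf1. Ebf3 was named on 3 further probe sets only together with Ebf1, which are described separately. No probe set carried Pou4f2 or Pou4f3 as its symbol, and these genes were not analysed here.

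The rats were adult male Brown Norway rats in which 1 eye had raised pressure, a model of glaucoma, and the fellow eye served as control. Per the labels' protocols, ganglion cells on both sides were first marked with the dye Fluorogold, injected into the superior colliculus, to which their axons run. The pressure came from hypertonic saline given into an episcleral vein, and after 10 days laser capture took 2000 ganglion cells from each eye. Each array holds the amplified RNA of 1 eye of 1 rat, OD for the right eye (n = 3) and OS for the left (n = 3). The labels used here do not say which eye had raised pressure, so values are compared as left minus right within a rat, and no difference below can be assigned to the raised or the normal pressure.

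Ganglion cells are the neurons that send the signal of the retina to the brain. During development, the basic helix-loop-helix factor ATOH7 makes progenitors competent to become ganglion cells, and the POU-homeodomain factors of the POU4F (BRN3) family and the LIM-homeodomain factor ISL1 then switch on the ganglion cell programme. POU4F factors stay on in most adult ganglion cells and are widely used to count them, whereas ISL1 is also made by some bipolar and amacrine cells. EBF factors, which bind DNA through a zinc-containing domain and act as dimers, take part in the specification of ganglion cell and other retinal subtypes.

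Values are intensities on a linear scale, and the file gives no call of presence or absence. Background on each array was therefore set by 27 control probe sets for bacterial RNAs, whose 95th percentile is called the background limit. It ran from 260.5 to 590.8 and was highest in rat 2, with 546.6 on the left array and 590.8 on the right. Over all 31042 probe sets, between 34.8% and 58.1% of probe sets exceeded the limit of an array. All 11 ganglion cell marker genes looked up had a probe set (among them Thy1, Rbpms, Slc17a6 and Nefh), and between 9 and 11 of them exceeded the limit on each array. Markers of other cell types were present too: those above the limit on an array numbered 5 to 9 of 9 for photoreceptors, 2 to 6 of 6 for pigment epithelium, 3 to 7 of 8 for Mueller glia and astrocytes, 4 to 7 of 10 for amacrine, 2 to 5 of 6 for bipolar and 2 to 5 of 5 for horizontal cells, and 0 to 6 of 8 for microglia. Ganglion cell markers were thus detected on every array, but not alone. Rat 3 stood apart: over tested probe sets, deviations from the group means correlated between its eyes at 0.326, and between an eye of rat 3 and the opposite eye of another rat at -0.197 to -0.164. For the 6 probe sets, differences are given without a rat where that turns their direction or moves them by more than 1.5 times. Differences of all other probe sets and genes are given over all 3 rats only, and those with a large SD can depend on a single rat.

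The 6 probe sets differed widely in how far they stood above background. Of their 36 values, 23 exceeded the limit of their array, 12 of 18 on right and 11 of 18 on left arrays, against 45.5% of all probe set values. Ebf1 accounted for 16 of the 23, Pou4f1 for 4 and Isl1 for 3. Ebf1 probe sets 1382212_at and 1392619_at exceeded the limit on all 6 arrays, as did 11.3% of all probe sets.

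**Figure D1:**
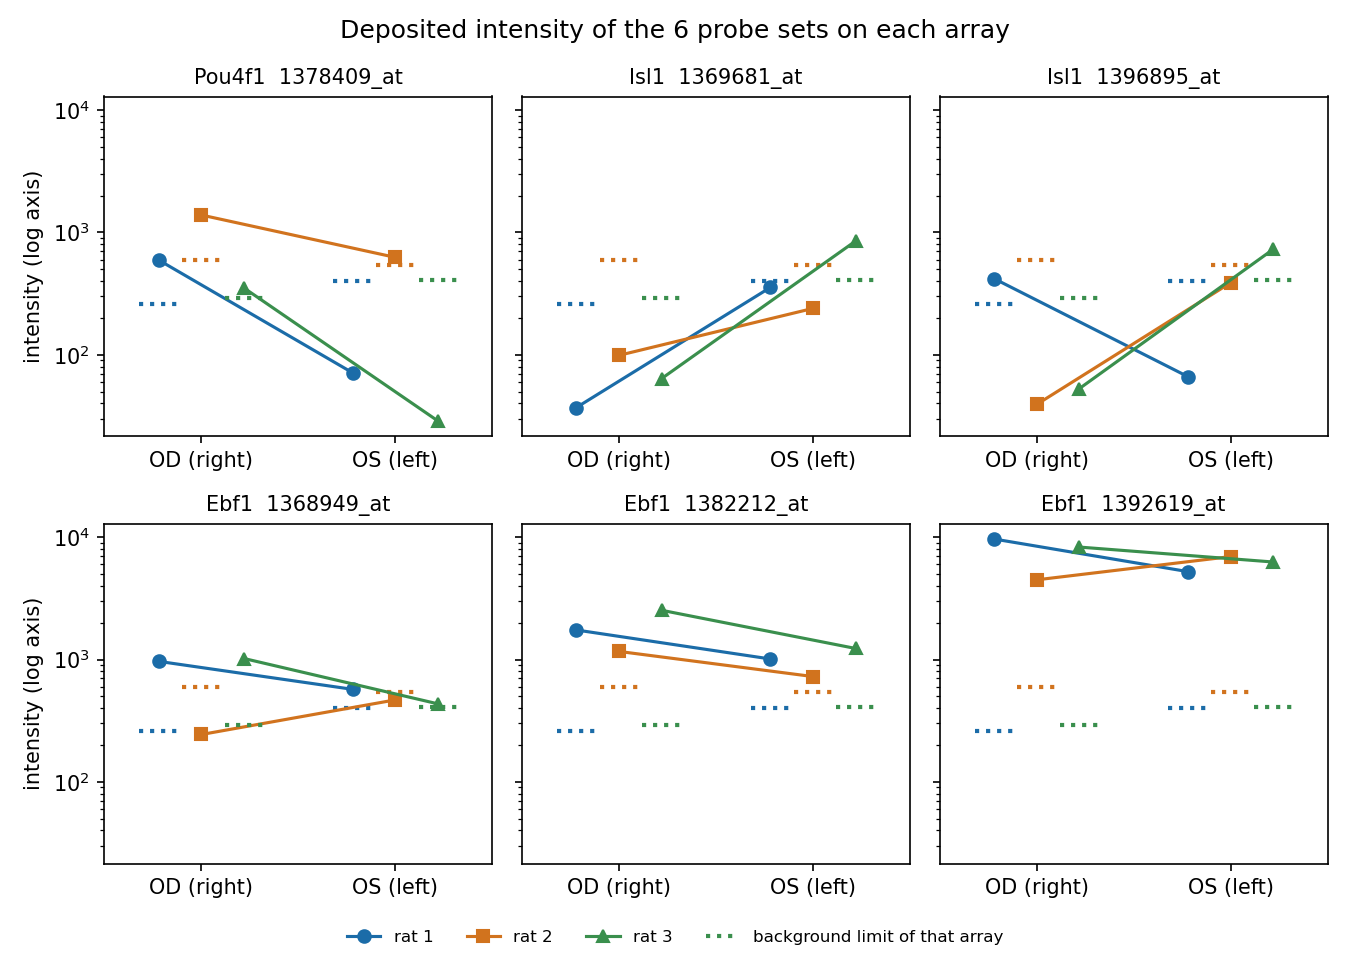
Deposited intensity (log axis) of the 6 probe sets, with a line joining the right (OD) and left (OS) eye of each rat and a dotted mark at the background limit of each array. Ebf1 1392619_at lies above the limit in all 3 rats and both eyes, Pou4f1 crosses it downward in rats 1 and 3, and Isl1 1369681_at lies below it on every right array.

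Pou4f1, whose product BRN3A is the POU4F factor most used to stain ganglion cells, was lower in the left eye of every rat. Its probe set 1378409_at is not annotated to a curated RefSeq mRNA. It read 594.2, 1388.2 and 351.0 in the right eyes of rats 1, 2 and 3, and 71.1, 625.4 and 28.7 in their left eyes. All 3 right arrays exceeded the limit, at 2.28, 2.35 and 1.20 times its value, but of the left arrays only that of rat 2 did, at 1.14 times. The eyes overlapped, because the left eye of rat 2 was brighter than the right eyes of rats 1 and 3. Within rats the signal was 8.36-fold lower on the left in rat 1, 2.22-fold in rat 2 and 12.2-fold in rat 3, as ratios of intensities, and the left values of rats 1 and 3 behind these ratios lie under the limit.

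On the log2(intensity + 16) scale used for all differences here, the Pou4f1 difference was -2.33 ± 1.04 (SD, n = 3 rats), with a limma 95% interval of -4.58 to -0.07. The limma p was 0.0442 before and 0.714 after Benjamini-Hochberg adjustment over 15521 tested probe sets, so it did not pass the threshold of 0.05. Lower on the left at an unadjusted p under 0.05 were 4.31% of tested probe sets, and at an adjusted p under 0.05 only 0.0129%. The exact sign-flip permutation test cannot give a two-sided p below 0.25 with 3 rats. With all values below 591, the highest of the 6 limits, raised to that floor, the difference shrank to -0.38, nearly all of it from rat 2. That floor is the limit of the right array of rat 2. It also raises the right value of rat 3, which exceeded its own limit, so part of the shrinkage comes from the choice of floor. The size of the difference in rats 1 and 3 rests on left readings below their limits. Fewer cells that make Pou4f1 among those captured and less Pou4f1 RNA per cell cannot be told apart here.

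The summed intensity of the 11 ganglion cell marker genes was also lower on the left in 3 of 3 rats, ranging from 23449.2 to 32933.3 on right and from 14082.3 to 18827.9 on left arrays, and none of the 11 was listed at 0. Singly, 7 of the 11 were lower in all 3 rats, against 14% of tested probe sets, and 4 (Sncg, Nefl, Slc17a6 and Gap43) went different ways in different rats. By limma 0 passed the threshold, and 3 had an unadjusted p under 0.05, all lower, against 4.31% of tested probe sets. The list holds Nefl, Nefm and Nefh, and earlier results on the neurofilament genes in these data were known when it was chosen. These counts are thus no independent result. Such a lower sum was not particular to ganglion cell markers. The sum of 6 pigment epithelium markers was lower on the left in 3 of 3 rats as well, from 7331.9 to 24767.0 on right and from 2737.4 to 6083.8 on left arrays. So was that of the 10 amacrine markers, from 22548.2 to 61036.6 on right and from 10500.6 to 21362.4 on left arrays. A few bright genes weigh most in such sums. The amacrine sum was made up mostly of Gad1, Calb2 and Tfap2b, and the pigment epithelium sum holds Rlbp1, which is also in the Mueller glia list. Singly, 2 of the 6 pigment epithelium markers and 3 of the 5 tested amacrine markers were lower on the left in all 3 rats. The log2 ratio of the 3' to the 5' control probe set for beta-actin, a measure of RNA length, was 1.17, -0.10 and 2.03 on the right arrays of rats 1 to 3 and 3.11, 0.69 and 3.49 on the left, higher on the left in each rat. The same ratio for GAPDH was 1.20, 0.69 and 4.85 on the right and 1.49, 1.60 and 1.89 on the left, so that rat 3 went the other way. The part of cell makeup or RNA length in the Pou4f1 difference was not tested.

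Upstream of the Pou4f1 start in the RefSeq table (build GRCr8, minus strand, chr15:87674794-87674893) lie the bases shown here because Pou4f1 had the lowest unadjusted p of the 6 probe sets and because E-boxes (CANNTG) are the sites that basic helix-loop-helix factors such as ATOH7 recognise. Capitals mark E-boxes and a TATAA match, and the stretch runs 5′ to 3′ from 250 to 151 bases before the start.
Pou4f1 upstream: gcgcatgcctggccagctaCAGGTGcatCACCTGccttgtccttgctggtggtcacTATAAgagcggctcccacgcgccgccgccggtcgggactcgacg

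The E-boxes of this stretch lie 231 to 226 and 222 to 217 bases before the start. In the whole window of 250 bases, searched on both strands, Pou4f1 held 4 E-boxes. Windows with an E-box made up 65.5% of the 33469 in the table, in which Pou4f1, Isl1 and Ebf1 were all found, and windows with 4 or more made up 3.2%. The same window held 1 E-box for Isl1 and 1 for Ebf1. The palindrome CCCNNGGG bound by EBF factors had 2 overlapping matches before Isl1 and 0 before Pou4f1 and Ebf1, against 10.8% of windows with a match. The letters TAATTA, a core bound by many homeodomain proteins, had 0 matches before these 3 genes (4.86% of windows). Such matches describe letters in a window and are not binding sites, and which start is used in these cells was not measured.

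Isl1 encodes ISL1, the LIM-homeodomain partner of the POU4F factors, and both of its probe sets lay near or below background. Probe set 1369681_at, from the RefSeq mRNA, read 37.0, 98.9 and 63.9 in the right eyes of rats 1, 2 and 3, and 354.8, 239.2 and 850.8 in their left eyes. The left eye was higher in 3 of 3 rats and the eyes did not overlap, opposite in direction to Pou4f1. Of all probe sets, 5.36% were higher on the left with no overlap, and 14.9% were higher on the left in all 3 rats. All 3 right values lay below the limit, and on the left only rat 3 exceeded it, at 2.08 times its value.

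The Isl1 1369681_at difference was 2.47 ± 1.18 (SD, n = 3 rats). It was too dim to enter the fit of 15521, and with no filter limma gave an adjusted p of 0.802 over 31042 probe sets (unadjusted p 0.0519). As all 3 right values and 2 of the 3 left values lie below their limits, no fold is given. With the floor of 591 the difference was 0.17, set by rat 3 alone.

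The other Isl1 probe set, 1396895_at, not annotated to a curated RefSeq mRNA, did not repeat this in every rat. It read 419.6, 39.2 and 52.8 in the right eyes of rats 1, 2 and 3, and 66.2, 387.5 and 728.6 in their left eyes. It exceeded the limit on 1 right array (rat 1) and 1 left array (rat 3), and the eyes overlapped. Its difference was 1.30 ± 3.22 (limma without a filter, adjusted p = 0.916), higher on the left in 2 of 3 rats. Leaving out rat 1, 2 or 3 gave 3.15, 0.52 and 0.23, and the floor of 591 gave 0.10, so its size depended on which rats were included. The left array of rat 3 was the only one on which both Isl1 probe sets exceeded the limit.

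Bipolar and amacrine cells also make ISL1, so the markers of both were looked up. Of 10 bipolar marker genes, 6 had a probe set and 5 were tested, all 5 with a higher mean on the left and 0 past the threshold by limma. Higher on the left in all 3 rats were 3 of the 5 (Trpm1, Prkca and Pcp2), against 14.5% of tested probe sets. The difference was 0.63 ± 0.67 for Prkca and 0.16 ± 0.11 for Pcp2. Trpm1, a channel gene of ON bipolar cells, was higher on the left in 3 of 3 rats, by 1.37 ± 0.26, and exceeded the limit on 3 of 6 arrays. Grik1, a kainate receptor gene of OFF bipolar cells and the 1 not tested, was lower on the left in 3 of 3 rats without overlap, by -1.71 ± 0.81, and exceeded the limit on 1 of 6 arrays. The summed intensity of the 6 ranged from 9215.7 to 30242.8 on right and from 14852.7 to 61342.4 on left arrays, was higher on the left in rats 2 and 3 and lower in rat 1, and was made up mostly of Otx2, which pigment epithelium and photoreceptors also make. Of 12 amacrine marker genes, 10 had a probe set, and their summed intensity was lower on the left in 3 of 3 rats, as given above. Chat and Slc18a3, which define the starburst amacrine cells that make ISL1, exceeded the limit on 0 of 6 arrays, and no marker in either list was listed at 0. The part of other cells in the Isl1 values was not tested.

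Ebf1 encodes an EBF family factor, named for its role in early B cells and the olfactory system, and was the only one of the 3 genes with probe sets above the limit on all 6 arrays. Probe set 1382212_at was lower on the left in every rat. It read 1743.1, 1164.1 and 2526.3 in the right eyes of rats 1, 2 and 3, and 1010.1, 725.4 and 1231.2 in their left eyes. The ratios of right to left were alike in the 3 rats, 1.73, 1.60 and 2.05, and each of the 6 values exceeded its limit, at 1.33 to 8.63 times its value. The eyes overlapped, since the left eye of rat 3 was brighter than the right eye of rat 2.

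This gave a difference of -0.83 ± 0.18 (SD, n = 3 rats), the smallest spread of the 6 probe sets, with a limma 95% interval of -1.90 to 0.25 and an adjusted p of 0.796. It kept the value of -0.83 under the floor of 591, as all 6 values lie above it. The limma variance is drawn mostly from other probe sets of like brightness, so the interval is wider than the spread over these 3 rats.

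The brightest Ebf1 probe set, 1392619_at, read 9673.1, 4483.7 and 8310.2 in the right eyes of rats 1, 2 and 3, and 5233.4, 6946.1 and 6272.7 in their left eyes. It stood at 7.59 to 37.1 times the limit. The left eye was lower in rats 1 and 3 and higher in rat 2, and the difference was -0.22 ± 0.77 (limma adjusted p = 0.933, 95% interval -1.10 to 0.66). Right eyes spread more than left, with a mean of 7489 ± 2690 (SD, n = 3) against 6151 ± 863 (SD, n = 3).

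The third Ebf1 probe set, 1368949_at, from the RefSeq mRNA, went the same way in each rat as the brightest. It read 965.4, 243.6 and 1018.7 in the right eyes of rats 1, 2 and 3, and 570.1, 467.5 and 433.7 in their left eyes. Both values of rat 2 lay below the limit, and the other 4 exceeded it. The difference was -0.35 ± 1.10 (limma adjusted p = 0.940, 95% interval -1.94 to 1.24). The 3 Ebf1 probe sets thus had the left eye lower in rats 1 and 3 alike and disagreed in rat 2, where 1382212_at was lower and the other 2 higher. The mean difference of 1392619_at was 0.11, -0.64 and -0.13 when rat 1, 2 or 3 in turn was left out, and that of 1368949_at was -0.15, -0.97 and 0.08.

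Ebf3, a close relative of Ebf1 with a nearly identical DNA-binding domain, could be read only on probe sets annotated to both genes. Of these, 1389712_at read 818.6, 1117.6 and 1720.7 in the right eyes of rats 1, 2 and 3, and 520.3, 410.6 and 1010.1 in their left eyes. It exceeded the limit on 5 of 6 arrays and was lower on the left in 3 of 3 rats, by -0.94 ± 0.42 (limma adjusted p = 0.799). The other 2 exceeded it on 1 array each. Probe set 1385173_at was lower on the left in 3 of 3 rats without overlap (4.66% of all probe sets), from 72.2 to 534.4 on right and from 17.4 to 38.8 on left arrays, with every left value below the limit. Probe set 1396234_at had values from 15.6 to 298.3 on right arrays, all below the limit, and from 73.0 to 734.2 on left arrays. How much of these signals comes from Ebf3 and how much from Ebf1 cannot be told apart. The family members Ebf2 and Ebf4 each exceeded the limit on 1 of 6 arrays.

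**Figure D2:**
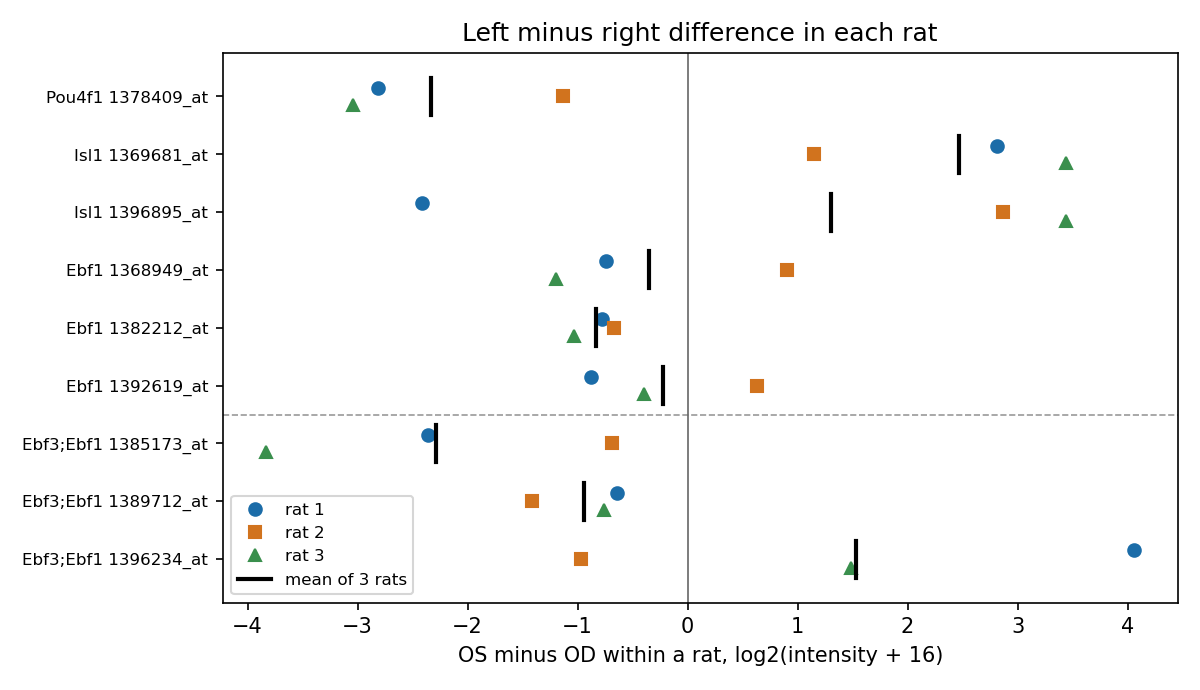
Left minus right difference in each rat on the log2(intensity + 16) scale (points) and the mean of 3 rats (bars), for the 6 single-gene probe sets above the dashed line and the 3 probe sets shared by Ebf3 and Ebf1 below it. Pou4f1 and Ebf1 1382212_at lie left of 0 in 3 rats, with means of -2.33 and -0.83, and Isl1 1369681_at lies right of 0 in 3 rats, with a mean of 2.47.

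Taking the 6 probe sets as a group, 2 were lower on the left in all 3 rats (Pou4f1 and Ebf1 1382212_at), 1 was higher in all 3 (Isl1 1369681_at) and 3 were mixed. Over all probe sets, 12.2% were lower and 14.9% higher in all 3 rats. Without rat 1, 2 of the 6 were lower and 2 higher in both remaining rats, and without rat 3, 2 were lower and 1 higher. Without rat 2, 4 were lower, against 23.2% of all probe sets, and 1 was higher. The 4 were the probe set of Pou4f1 and the 3 of Ebf1. The same 4 of the 6 were among the tested probe sets, all with a lower mean on the left and a median difference of -0.59, against -0.01 over all tested probe sets. As 3 of the 4 read the same gene on the same arrays, they are not independent, and the shares over all probe sets are no measure of them. The 2 that were not tested are those of Isl1, which have a higher mean on the left, and over all 6 the median was -0.28, against 0.05 over all 31042. None of the 4 passed the threshold by limma, 1 had an unadjusted p under 0.05, and 0 of the 6 passed with no filter, where 0.029% of probe sets did.

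The genes whose 6 values ran most like those of Pou4f1, by Pearson's r of log2 values over the 6 arrays, were Cep78 (r = 0.983), Dgka (0.980), Pex2 (0.979), Des (0.977) and Lrrc61 (0.975). Dgka read 548.0, 2691.9 and 486.8 on the right and 58.3, 546.2 and 35.0 on the left in rats 1 to 3, so that rat 2 was brightest on both sides, as for Pou4f1. For the brightest Ebf1 probe set they were Brat1 (0.986), Cryzl1 (0.985), Cul7 (0.983), Canx (0.968) and Nfat5 (0.961). Candidates were 7919 genes above the limit on at least 3 arrays, of which 14 reached an r of 0.95 with Pou4f1 and 10 with Ebf1. With 6 arrays from 3 rats and so many candidates, such values describe these arrays only.

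Genes that act with or before these factors were looked up in fixed lists, each gene by its brightest probe set. Of 16 upstream and early retinal regulators, 13 were on the array and 10 tested, of which 8 had a lower and 2 a higher mean on the left, with a median of -0.89 against -0.01 over all tested probe sets. By limma 0 passed the threshold in either direction, and 2 (Pax6 and Meis1) were lower at an unadjusted p under 0.05, against 4.31% of tested probe sets. Lower on the left in all 3 rats were 4 of the 10 and higher 1, against 14% and 14.5% of all tested probe sets. Pax6, the paired-box factor that keeps retinal progenitors multipotent and persists in ganglion and amacrine cells, read 7334.7, 5628.0 and 11883.2 in the right eyes of rats 1, 2 and 3, and 1945.5, 2997.1 and 3174.6 in their left eyes. Every right array was brighter than every left array, as in 5.08% of tested probe sets, and the difference was -1.57 ± 0.58 (limma adjusted p = 0.293). The homeobox genes Meis1 (-1.21 ± 0.99) and Lhx2 (-1.06 ± 0.40) were also lower on the left in 3 of 3 rats, Meis1 by only -0.07 in rat 1. The Notch effector Hes5 was higher in 3 of 3, by 1.35 ± 2.02, mostly from rat 3 (3.68, against 0.18 and 0.2 in rats 1 and 2). The amacrine marker sum given above was lower on the left beside these, and its part was not tested.

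Of 30 other transcription factors used to mark ganglion cells or their subtypes, 26 were on the array and 18 tested, 13 with a lower and 5 with a higher mean on the left, with a median of -0.21 against -0.01 over all tested probe sets. Here too 0 passed by limma, and 2 of the 18 were lower at an unadjusted p under 0.05 (4.31% of tested probe sets). In all 3 rats 4 of the 18 were lower and 1 higher, against 14% and 14.5% of tested probe sets. Irx4, an Iroquois homeobox gene, had the smallest p, with 2491.8, 1716.5 and 3527.4 in the right eyes of rats 1, 2 and 3, and 226.4, 694.8 and 751.8 in their left eyes, a difference of -2.29 ± 1.05 (limma adjusted p = 0.282). Its right and left eyes did not overlap either. Satb1 (-1.53 ± 1.71) and Mef2a (-0.78 ± 0.62) were lower on the left in 3 of 3 rats and Foxp2 (-1.68 ± 3.62) in 2 of 3. In rat 2 the differences of Satb1 and Mef2a were only -0.15 and -0.07.

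LIM-domain and EBF partner genes had no shared direction. Of 11 genes, 9 were on the array and 7 tested, 3 with a lower and 4 with a higher mean on the left, 0 past the threshold and 0 with an unadjusted p under 0.05, with a median of 0.24. Lmo2, which encodes a LIM-only adaptor, was above the limit on all 6 arrays and higher on the left in 3 of 3 rats, by 0.71 ± 0.59. Its relative Lmo4 (0.57 ± 1.23), the LIM-homeodomain gene Lhx9 (0.83 ± 1.78) and Zfp423, which encodes an EBF-binding zinc finger protein (-0.71 ± 1.34), went different ways in different rats.

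Genes reported as targets of POU4F factors or ISL1 were mostly lower on the left. Of 16, 15 were on the array and 11 tested, 10 with a lower and 1 with a higher mean. Their median was -0.83, against -0.01 over all tested probe sets. A total of 7 of the 11 were lower on the left in all 3 rats, against 14% of tested probe sets. By limma 0 passed the threshold, and 4 (Rit2, Snap25, Nefh and Nefm) were lower at an unadjusted p under 0.05, against 4.31% of tested probe sets. Rit2, a small GTPase gene of neurons, read 1557.6, 745.2 and 3134.4 in the right eyes of rats 1, 2 and 3, and 120.8, 188.7 and 948.3 in their left eyes, a difference of -2.38 ± 1.0 (limma adjusted p = 0.371), with only 1 left array above the limit. Gap43, a growth cone gene and target of POU4F2, was the 1 with a higher mean, at 0.01 ± 0.83. The vesicle fusion gene Snap25 (-1.81 ± 0.46) and the neurofilament genes Nefh (-1.72 ± 0.22) and Nefm (-1.40 ± 0.43) were lower in 3 of 3 rats. These lists were drawn up with earlier results on the neurofilament genes and Snap25 known, and 6 of the 16 target genes are also in the ganglion cell marker list, so this count is not independent of the marker sum given above.

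**Figure D3:**
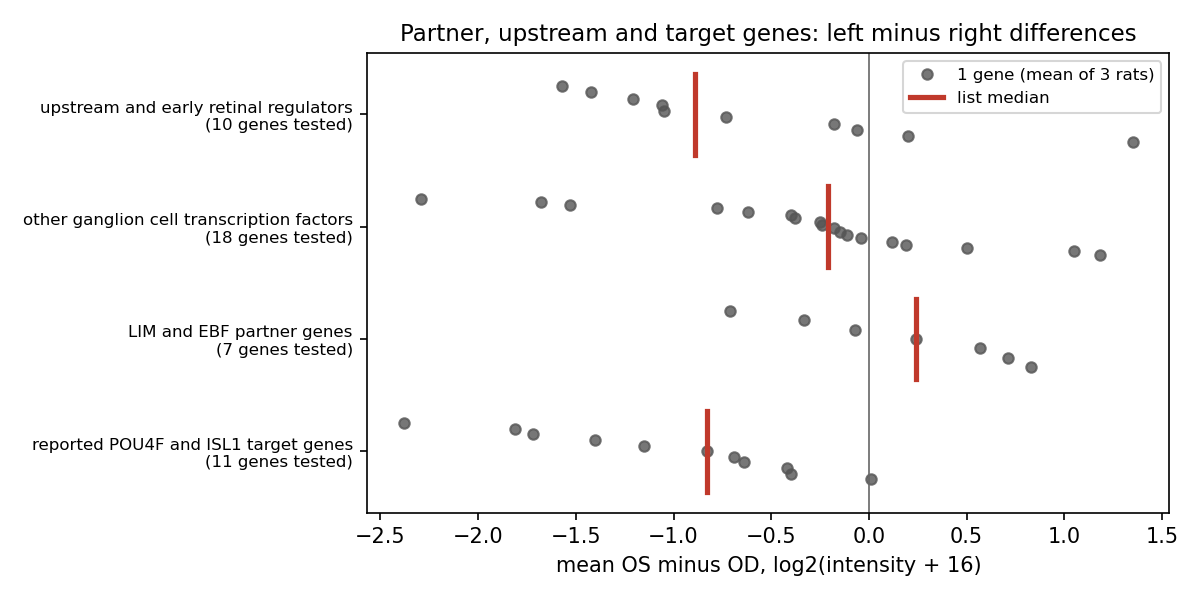
Mean left minus right difference over 3 rats, log2(intensity + 16), of each tested gene (points) in 4 lists of genes related to these factors, with the list median (bars). Medians are -0.89 for upstream regulators, -0.21 for other ganglion cell factors, 0.24 for LIM and EBF partners and -0.83 for reported targets.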

How the data were processed

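The submitters' processing notes name GCOS as the array software, with version and settings not given in the sources used here. Intensity values were deposited by the authors on a linear scale, 1 per probe set, and with 2% trimmed from either end every array had a mean of 500.1, so they had been scaled to a common target. A total of 57 control probe sets stayed out of the tests. The platform annotation gave 1 symbol for 20826 of the other 31042, several for 436 and none for 9780.

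An offset of 16 was added before log2, which understates differences of dim probe sets. The brighter probe sets by mean log2 value over all arrays (15521, from the median up) entered the limma test (version 3.58.1, R 4.3.3), with rat as a fixed block, an intensity trend in eBayes and Benjamini-Hochberg adjustment over all tested probe sets, two-sided. The fit was tested on simulated data. Residual degrees of freedom were 2 and prior ones 19.4, so p-values rest mostly on the variance of other probe sets. Only 6 arrays limit the precision.

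Both eyes of a rat were paired because the titles number the animal. Deviations from group means correlated between the eyes at 0.109, 0.122 and 0.326 for rats 1 to 3, over probe sets. Between an eye of rat 1 and the opposite eye of rat 2 they correlated at 0.088 and 0.104. Matched eyes of rats 1 and 2 were thus hardly more alike than unmatched ones. All 6 probe sets were described. From each list up to 4 genes with the smallest limma p were named, and for likeness 5 genes per member gene above the limit on at least 3 arrays. The members and lists were chosen with earlier results of these data known. The promoter sequence is from RefSeq, build GRCr8.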

Additional observations from a re-analysis of the deposited data

How the results depend on the processing

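The number of tested probe sets past the threshold by limma, 2 in the main setting, fell to 0 after quantile normalization, when 1 was the offset, from the 75th percentile of brightness up, without the eBayes trend, and with all values under 591 raised to it (the common floor, added after the data were seen). Unadjusted p-values under 0.05 then numbered 973, 1023, 638, 855 and 472, against 1072 in the main setting. Of these counts, 638 was out of 7761 probe sets and the rest out of 15521. Without the replicate block the number past the threshold was 0 (546 unadjusted) and with a random replicate block 0 (848 unadjusted). It was 1 with a robust prior, 9 with an offset of 64, 9 with no filter and 18 to 59 with 1 rat left out. With 1 rat left out, residual degrees of freedom were 1. Prior ones were 34.3 without rat 2 and infinite without rat 1 or 3. Those higher counts thus rest almost wholly on the variance of other probe sets. Wherever Pou4f1 and the 3 Ebf1 probe sets were fitted, none was called, and their smallest adjusted p was 0.633, for Pou4f1 with an offset of 64. The 2 Isl1 probe sets were fitted only with no filter, and were not called.

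Of 67 recomputed differences, 65 kept their direction and 54 also stayed within 1.5 times the main value. These counts include settings that changed only the filter, block, trend or prior. In this paired design such settings return the same mean difference by construction, so the counts overstate its stability. With 1 rat left out, the difference of Ebf1 1392619_at ran from -0.64 to 0.11 and that of Ebf1 1368949_at from -0.97 to 0.08, and that of Isl1 1369681_at became 0.17 with the common floor, that of Isl1 1396895_at 0.10 and that of Pou4f1 -0.38. The count of probe sets lower on the left in every rat, 2, was 2 to 4 with 1 rat left out and 1 with the common floor. Values above the background limit, 23 of 36, were 14 to 17 of 24 with 1 rat left out. Removing the replicate block changed no call among the 4 fitted without it. Brightness limits Pou4f1 on the left and Isl1 on both sides.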

Other observations

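Isl2 and Lmo3, chosen after their values were seen, are a LIM-homeodomain relative of Isl1 and a LIM-only gene. Isl2, which marks a subset of ganglion cells, read 628.8, 77.8 and 235.1 in the right eyes of rats 1, 2 and 3, and 687.2, 540.3 and 431.8 in their left eyes. It was higher on the left in 3 of 3 rats, by 1.18 ± 1.26 (limma adjusted p = 0.828), and exceeded the limit on 1 right and 2 left arrays. Lmo3 read 21.5, 57.6 and 35.2 on the right and 435.0, 407.3 and 400.9 on the left in rats 1 to 3, with no overlap between eyes. Its only value above the limit was that of the left eye of rat 1, so its size is uncertain, and it was too dim to enter the test. Of all probe sets, 14.9% were higher on the left in all 3 rats and 5.36% without overlap, and the LIM genes Lmo4, Lhx1 and Lhx9 went different ways in different rats.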
